A study of Mus musculus with 9 samples.

Results

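The genes of the laminin chains and of the integrin subunits were followed by sequencing the total RNA of D3 cells, a line of mouse embryonic stem cells (mESC). They were taken by their names, as protein-coding genes called Lama, Lamb or Lamc with a number, or Itga or Itgb with a number or letter, after 3 genes of proteins that bind an integrin tail (names starting Itgb1bp or Itgb3bp) were set aside. This gave 39 genes of the 29069 in the table (19018 of them protein coding), namely 11 laminin genes and 28 genes with an integrin name. Of the 39 genes, 34 had a mean above 5 normalised counts over the 9 samples and were tested beside 18156 genes in all. The other 5 (*Itgax*, *Itgb2l*, *Itgb6*, *Itgb8* and *Itgbl1*) are described only. *Itgbl1* encodes an integrin beta-like protein that is not a receptor subunit.

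The cells were grown without feeders and sampled at 24 h between passages 5 and 8, with 3 samples per medium. Ground state (GS) cultures were kept in serum-free NDiff N2B27 with the MEK inhibitor PD0325901 at 1 μM, the GSK-3 inhibitor CHIR99021 at 3 μM and the cytokine LIF at 20 ng/mL. Spontaneous differentiation medium (DM) was DMEM with 10% FBS, glucose, glutamine and 2-mercaptoethanol, with no inhibitor and no LIF. The NO cultures had DM with 250 μM DETA/NO, which releases nitric oxide. Between GS and the other media the inhibitors, LIF, serum and basal medium changed together and cannot be told apart. DM against NO differed by DETA/NO alone, and no sample had the DETA carrier without nitric oxide. The D3 line is a single cell line, and RNA came from 1 dish per sample. The labels do not say whether the 3 samples of a medium were separate cultures, so p-values measure the spread between these samples, which may be technical.

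Laminins are cross-shaped proteins of the basement membrane, each built from an alpha, a beta and a gamma chain. The alpha chain carries the main site that cells bind. Integrins are cell surface receptors made of an alpha and a beta subunit, and the partners decide whether a receptor binds laminin, collagen, the RGD motif of fibronectin and vitronectin, or a protein on another cell. Pluripotent cells of the early embryo lie against a basement membrane, and mESC attach to laminin mainly through integrins with the beta1 subunit.

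The normalised counts summed to between 18290445 and 20508679 per sample, and the estimated depth lay between 14307523 and 27061091 reads assigned to genes, where 1 read is worth between 0.701 and 1.32 normalised counts. In the summed level of pluripotency genes, NO replicate 2 stood apart from NO replicates 1 and 3. The summed level of 8 genes of pluripotent cells was 48665 normalised counts there, as against 80862 and 77499 in the other NO samples. It ran from 81845 to 86234 over the GS samples and from 77585 to 88137 over the DM samples. All 8 were expressed in every sample of these cells labelled as ES cells, the lowest value being 1805 for *Klf4* in DM replicate 3. In bulk RNA, fewer cells of a type and less RNA per cell cannot be told apart. Where omission of NO replicate 2 ended a call that is printed here, or moved its value by over 1.5 times, the value without it is given. For some markers of cell types, only the loss of the call is stated, or neither is given where the text says so.

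A gene is called below where its limma test gave an adjusted p under 0.05 over all 18156 genes and its level changed by at least 2-fold. Fold changes are on the scale of log2(normalised count + 1), which understates changes of low genes. Between DM and GS, 3 of the 34 genes were higher in DM (8.82%, against 2.94% of all genes tested) and 1 was lower (2.94%, against 1.27%). Between NO and GS, 14 were higher in NO (41.2%, against 10.1%) and 1 was lower (2.94%, against 1.64%). Between NO and DM, 8 were higher in NO (23.5%, against 6.78%) and 2 were lower (5.88%, against 1.77%). The median log2 fold change of the 34 genes was 0.29, 0.81 and 0.38 in these comparisons, beside -0.00068, -0.016 and 0.0010 over all genes. The comparisons share samples, so their counts are not independent of each other. Over the whole table, 86% of the calls in NO against GS and 79.3% of those in NO against DM were higher in NO, and with quantile normalisation 67.5% and 65.1%. Without NO replicate 2, 9 laminin and integrin genes were called against GS and 6 against DM, all of them higher in NO. Over the whole table, 1398 and 785 of 17893 genes were then called, 83.7% and 77.3% of them higher in NO. Without DM replicate 1, 5 laminin and integrin genes were higher and 1 was lower in NO against DM. Over the whole table, 943 of 18212 genes were then called, 77.1% of them higher in NO. The moderated F test over the 3 media, a test with no minimum fold, found differences for 17 of 34 genes, where 23.3% of all genes differed. In all, 18 genes were called in at least 1 comparison, 16 in none, and only *Itga9* in all 3. The matching shares over all genes were not counted.

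**Figure D1:**
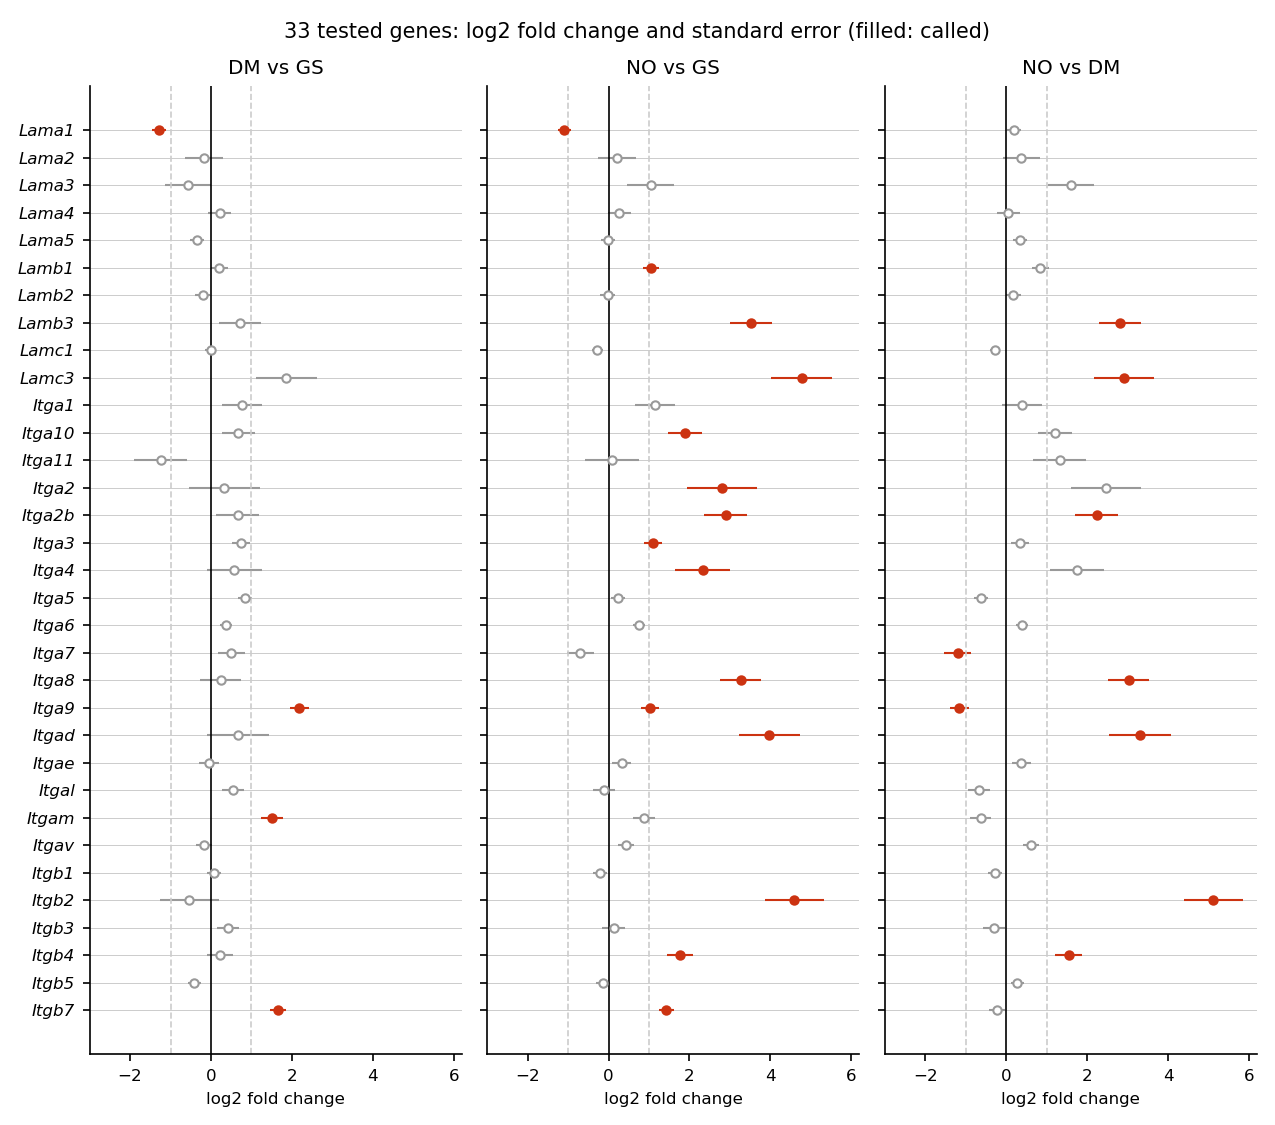
Log2 fold changes with SE of 33 of the tested laminin and integrin genes in the 3 comparisons of media, filled where the gene was called. Most filled points lie to the right of 0 in the panels of NO, with *Itgb2* and *Lamc3* farthest out in NO against GS, while *Lama1* lies to the left in both comparisons with GS.

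Among the laminin alpha chains, *Lama1* fell on leaving the ground state and *Lama5* did not pass the test. *Lama1* (ENSMUSG00000032796, chr17:67697259-67822647, plus strand, GRCm38 here and below) encodes alpha1, the alpha chain of laminin-111 in the earliest embryonic basement membranes. Its level was 8149, 7405 and 7918 normalised counts in the GS samples, 3476, 3465 and 2732 in the DM samples and 4372, 2874 and 3924 in the NO samples. All 6 samples without inhibitors lay below all 3 GS samples, and DM and NO overlapped. The log2 fold change was -1.29 (SE 0.17, adjusted p = 0.000922) for DM against GS and -1.09 (SE 0.17, adjusted p = 0.00156) for NO against GS, while NO and DM differed by 0.19 (SE 0.17, adjusted p = 0.464). The call of NO against GS was lost without NO replicate 2, where it became -0.92 (adjusted p = 0.00181), and when samples were scaled to equal totals, where it was -0.98.

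*Lama5* (ENSMUSG00000015647, chr2:180176373-180225859, minus strand) encodes alpha5, the alpha chain of laminin-511, on which pluripotent cells are grown. It was at 12552, 12746 and 10388 normalised counts in the GS samples, 8137, 9699 and 10333 in the DM samples and 9381, 14043 and 12412 in the NO samples. The DM samples lay just below the GS samples, and NO overlapped with both. The log2 fold changes were -0.34 (SE 0.18, adjusted p = 0.309), -0.01 (SE 0.18, adjusted p = 0.981) and 0.33 (SE 0.18, adjusted p = 0.216) for DM against GS, NO against GS and NO against DM. *Lama3*, the alpha chain of the epithelial laminin-332 (ENSMUSG00000024421, chr18:12333819-12583013, plus strand), was at 60, 64 and 40 normalised counts in the GS samples, 53, 51 and 17 in the DM samples and 53, 289 and 89 in the NO samples. Only NO replicates 2 and 3 lay above all other samples. Its difference of NO from DM, 1.60 (SE 0.57, adjusted p = 0.0819), did not pass the test, and was called only with the replicate number as a block (adjusted p = 0.0472) and without NO replicate 1 (adjusted p = 0.0167). An exon of Gm29200 on the opposite strand overlaps *Lama3*. *Lama4*, of vessel walls, ranged from 34 to 62 normalised counts over the 9 samples, and *Lama2*, of muscle, from 7 to 20. No comparison of either was called.

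The make-up of the alpha chain transcripts differed between GS and the other media. Levels of different genes were compared per kilobase of exon. *Lama1* made up 43.5% ± 3.35 (SD, n = 3) of the summed alpha chain level per kilobase in GS cultures, 28.7% ± 4.82 in those in DM and 27% ± 8.06 in those in NO, with *Lama5* making up 56% ± 3.33, 70.6% ± 4.95 and 71.8% ± 7.47. The shares of *Lama1* were 43.1%, 40.4% and 47% in the GS samples, 33.1%, 29.4% and 23.6% in the DM samples and 35.1%, 19% and 26.9% in the NO samples. GS did not overlap with the other media, while DM and NO did with each other. The summed alpha chain level was 1862 ± 111 normalised counts per kilobase over the GS samples, 1166 ± 72.8 over the DM samples and 1452 ± 146 over the NO samples.

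Among the beta chains, *Lamb3* rose in NO over both other media, and *Lamb1* rose over GS. *Lamb3* (ENSMUSG00000026639, chr1:193207699-193343878, plus strand) encodes beta3 of laminin-332, found in skin and other epithelia. It was at 24, 31 and 20 normalised counts in the GS samples, 43, 39 and 42 in the DM samples and 111, 754 and 306 in the NO samples. All NO samples lay above all others, over a range from 111 to 754. The log2 fold change was 3.53 (SE 0.52, adjusted p = 0.0013) against GS and 2.81 (SE 0.52, adjusted p = 0.00738) against DM. These became 2.86 and 2.13 without NO replicate 2, and 4.23 and 3.51 without NO replicate 1, with the call kept each time. All DM samples lay above all GS samples. DM against GS gave 0.72 (SE 0.52, adjusted p = 0.488), which was not called. The SE is shared by the 3 comparisons and includes the spread of the NO samples.

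The 250 bases before the RefSeq start of *Lamb3* (GRCm38.p6, chr1:193301993-193302242, plus strand, 5′ to 3′) are shown because a Zeb1 E-box, the letters CACCTG that the repressor Zeb1 can bind, ends at the last base before the start. Capitals mark the motif. The gene has another RefSeq start upstream of it, and the first start of a protein-coding GENCODE transcript lies 94518 bases upstream. The start shown coincides with a GENCODE transcript start, and which start was used in these cells was not tested.
Lamb3: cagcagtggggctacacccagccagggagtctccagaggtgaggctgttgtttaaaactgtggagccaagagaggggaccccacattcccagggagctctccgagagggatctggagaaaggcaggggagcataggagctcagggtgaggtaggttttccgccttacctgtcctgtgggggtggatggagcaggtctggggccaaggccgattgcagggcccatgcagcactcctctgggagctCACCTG

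*Lamb1* (ENSMUSG00000002900, chr12:31265234-31329644, plus strand), the beta1 chain of laminin-111 and laminin-511, was at 1025, 856 and 878 normalised counts in the GS samples, 1044, 1097 and 1033 in the DM samples and 1393, 2698 and 1836 in the NO samples. Each NO sample lay above each GS and DM sample. The difference was 1.05 (SE 0.20, adjusted p = 0.00475) against GS and 0.85 (SE 0.20, adjusted p = 0.0202) against DM, the latter under 2-fold and not called. Without NO replicate 2 the value against GS was 0.80 with an adjusted p of 0.00497, under 2-fold as well, and without NO replicate 1 the value against DM was 1.07, which was called. *Lamb2*, a beta chain of muscle, kidney and vessel laminins, lay between 1323 and 2087 normalised counts in all samples and was not called. Per kilobase, *Lamb3* made up 1.01% ± 0.252 of the beta chain level over the GS samples, 1.75% ± 0.21 over the DM samples and 9.71% ± 5.63 over the NO samples, and *Lamb1* 24.5% ± 0.938, 30% ± 3.86 and 36.9% ± 0.57. *Lamb2* remained the main beta chain in each medium, at 74.5% ± 0.824, 68.3% ± 4.03 and 53.4% ± 5.81.

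Of the gamma chains, *Lamc3* rose in NO, and *Lamc1* did not pass the test. *Lamc1* (ENSMUSG00000026478, chr1:153218922-153332786, minus strand), the gamma chain of most laminins, had the highest level per kilobase of all 39 genes in every medium, with 1938 ± 117 normalised counts per kilobase over the GS samples, 1929 ± 27.4 over the DM samples and 1601 ± 153 over the NO samples. The 3 NO samples, from 11846 to 14313 normalised counts, lay below the 6 others, from 15081 to 17008. The fold change of NO against GS was -0.28 (SE 0.13, adjusted p = 0.163).

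*Lamc3* (ENSMUSG00000026840, chr2:31887291-31946539, plus strand), gamma3 of a few specialised tissues, was at 2, 1 and 0 normalised counts in the GS samples, 3, 8 and 7 in the DM samples and 16, 148 and 47 in the NO samples. All NO samples lay above all others, over a range from 16 to 148. The fitted value of NO against GS was 4.77 (SE 0.75, adjusted p = 0.00171) and that of NO against DM 2.91 (SE 0.75, adjusted p = 0.0265). The GS samples held 0 to 2 normalised counts, so the fitted value depends on the pseudocount, with 5.31 at a pseudocount of 0.5 and 3.21 at 5. Against GS the call was kept without each library in turn, at 3.97 without NO replicate 2 and 5.54 without NO replicate 1. Against DM it was 3.68 without NO replicate 1, and the call was lost without NO replicate 2 (2.11), without NO replicate 3 and without any DM replicate, with adjusted p-values of 0.0561 to 0.102. An exon of the antisense gene Gm13441 overlaps *Lamc3* in the GENCODE annotation, and use of the strand in counting was not stated.

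**Figure D2:**
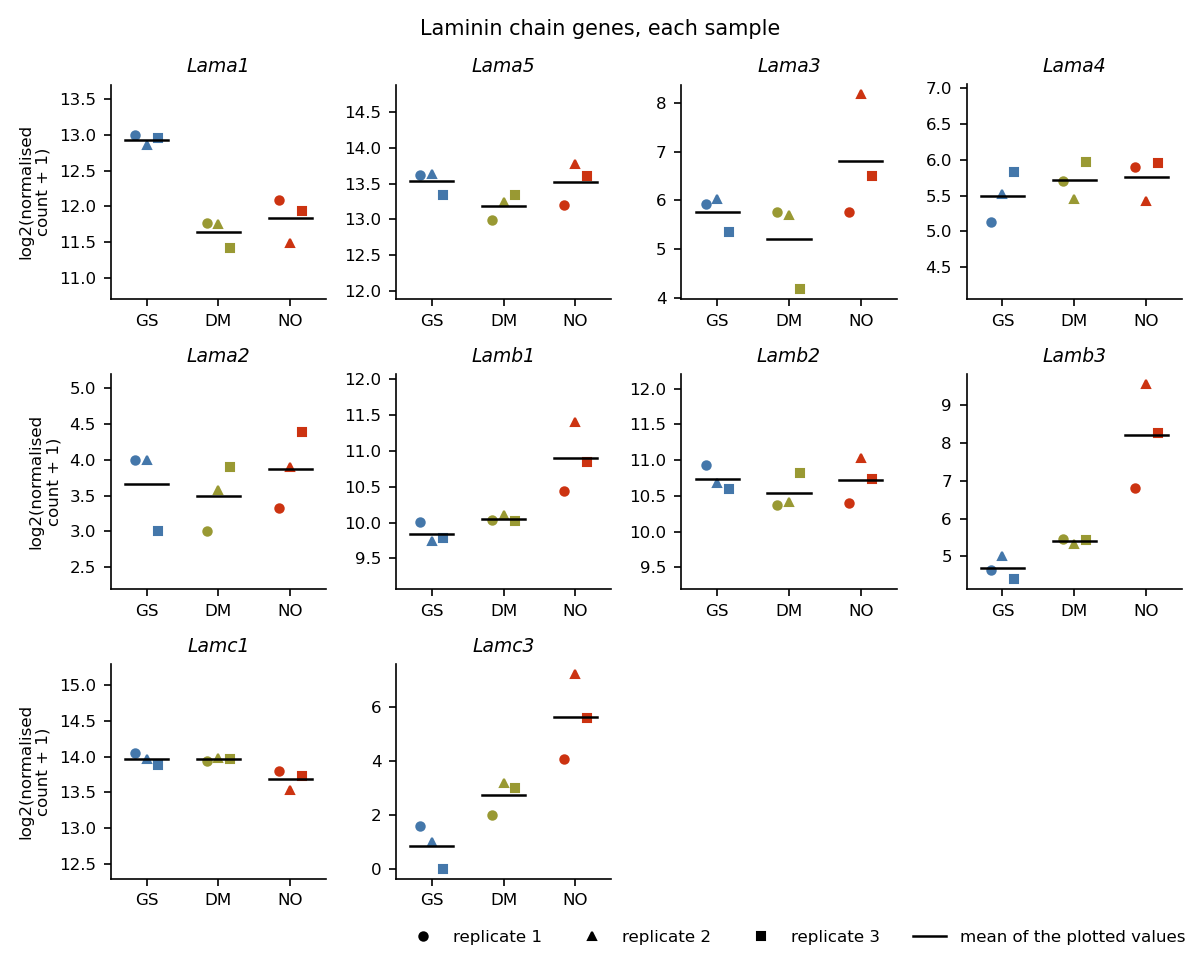
Levels of 10 laminin genes in each of the 9 samples as log2(normalised count + 1), with an axis of its own for each gene, points for samples and lines for the mean of each medium. *Lama1* drops between GS and the other media, and the NO points of *Lamb3* and *Lamc3* lie above the DM points with NO replicate 2 on top.

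Of 6 marker genes of squamous epithelium, in which laminin-332 and the beta4 integrin are typical, the keratins *Krt15* and *Krt5* rose in NO, while *Trp63* was lower in NO than in GS in each sample. *Krt15* was at 34, 455 and 139 normalised counts and *Krt5* at 26, 215 and 72 in NO replicates 1 to 3, and in GS and DM both were at 5 or less. *Trp63*, the transcription factor that defines squamous cells, was at 14, 5 and 7 in the GS samples, 1, 1 and 0 in the DM samples and 2, 4 and 3 in the NO samples. The summed level of the 6 markers was 6 to 16 in the GS samples, 3 to 5 in the DM samples and 66 to 697 in the NO samples. Only *Krt15* and *Krt5* had a mean above 5. Both were called higher in NO, with 6.17 and 5.37 against DM, or 5.27 and 4.61 without NO replicate 2. *Krt14* reached 19 in NO replicate 2 and did not exceed 1 elsewhere, and neither *Dsg3* nor *Krt6a* exceeded 3 in any sample. Markers of other cell types that express laminins and integrins were called in NO as well. Of 8 trophoblast markers tested, 4 were higher in NO than in DM (50%, against 6.78% of all genes), namely *Krt7* (3.63, or 2.86 without NO replicate 2), *Tfap2c* (2.41), *Hand1* (2.23) and *Gata3* (1.73), and all but *Hand1* kept the call without NO replicate 2. Against GS, *Krt7* and *Hand1* were higher and *Cdx2* and *Eomes*, which define trophoblast stem cells, were lower in NO. These were 25% of the 8 markers in each direction, against 10.1% and 1.64% of all genes. In DM, *Cdx2* (-5.09), *Tfap2c* (-2.75) and *Eomes* (-1.06) were called lower than in GS (37.5% of the 8 markers, against 1.27% of all genes). *Cdx2* was at 0, 4 and 0 in the DM samples and 3, 14 and 5 in the NO samples. *Tfap2c* in NO against GS gave -0.35 (SE 0.34, adjusted p = 0.51), which was not called. The summed trophoblast level was 367 to 452 over the DM samples, 725 to 787 over the GS samples and 460, 1461 and 627 in NO replicates 1 to 3. Of 7 endoderm markers, *Gata6* alone was called in NO against DM (3.13), or 14.3% of them against 6.78% of all genes. It was not called without NO replicate 2 (2.32, adjusted p = 0.0505). The endoderm sum was 346 to 476 in GS, 512 to 556 in DM and 580 to 1115 in NO, and *Afp*, *Ttr* and *Foxa2* did not exceed 5. Of 5 endothelial markers, *Tek* (2.70) and *Tie1* (2.02) were higher in NO than in DM (40%, against 6.78% of all genes). Of these, *Tek* kept the call without NO replicate 2, and *Cdh5* did not exceed 4. The endothelial sum, mostly *Pecam1*, was 3011 to 4157 in GS, 2579 to 2880 in DM and 3552 to 5420 in NO. Of 3 muscle markers, *Pax7* and *Myog* were higher in NO than in DM (2.18 and 1.70), or 66.7% against 6.78% of all genes. Neither was called without NO replicate 2. *Myod1* did not exceed 4, and the muscle sum was 22 to 28 in GS, 16 to 73 in DM and 48 to 389 in NO. Of 6 mesenchymal markers, *Col1a1* was higher in NO than in DM (1.56), or 16.7% of them against 6.78% of all genes. This call was lost without NO replicate 2. Against GS, *Col1a1* (1.49), *Thy1* (1.47) and *Twist1* (1.42) were higher in NO (50%, against 10.1% of all genes). Only these 3 had a positive log2 fold change there. *Thy1* was also higher in DM than in GS (1.70, or 16.7% of the list against 2.94%). Whether these calls against GS were kept without single libraries is not given here. The mesenchymal sum of 409 to 461 in NO lay within the range of the other media. In NO against DM the calls of *Krt15*, *Krt5*, *Krt7*, *Tfap2c* and *Tek* were kept without each library in turn, while all the others of these were lost without DM replicate 2. In NO against GS the call of *Cdx2* was lost without GS replicate 2. The part of any of these cells in the levels of laminin and integrin genes was not tested.

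Among the laminin-binding integrin alpha subunits, *Itga3* was higher in NO than in GS, *Itga6* by less than 2-fold, and *Itga7* was lower in NO than in DM. *Itga6* (ENSMUSG00000027111, chr2:71745616-71858416, plus strand) encodes alpha6, which pairs with beta1 or beta4 and is a long-known surface marker of stem cells. It was at 3330, 3390 and 3560 normalised counts in the GS samples, 4420, 4630 and 4156 in the DM samples and 4977, 7229 and 5360 in the NO samples. The media did not overlap, in the order GS, DM, NO. The log2 fold change of NO against GS was 0.75 (SE 0.15, adjusted p = 0.00545), NO against DM 0.39 (SE 0.15, adjusted p = 0.0967) and DM against GS 0.36 (SE 0.15, adjusted p = 0.199). Per kilobase it was the most abundant alpha subunit gene in each medium, with 380 ± 13.2, 488 ± 26.3 and 649 ± 134 normalised counts per kilobase.

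*Itga3* (ENSMUSG00000001507, chr11:95044474-95076801, minus strand) encodes alpha3, a receptor subunit for laminin-332 and laminin-511. It was at 1044, 877 and 773 normalised counts in the GS samples, 1337, 1322 and 1869 in the DM samples and 1418, 2625 and 1828 in the NO samples. Every DM and NO sample lay above every GS sample, and DM and NO overlapped. NO against GS gave 1.09 (SE 0.22, adjusted p = 0.00654) and DM against GS 0.74 (SE 0.22, adjusted p = 0.0749). The value of NO against GS was 0.85 without NO replicate 2 and 0.99 without GS replicate 3, in both cases under 2-fold. The 250 bases before the first of its RefSeq starts (GRCm38.p6, chr11:95076715-95076964, minus strand, 5′ to 3′) are shown with a Zeb1 E-box in capitals, here as the reverse complement CAGGTG, which begins 195 bases before the start.
Itga3: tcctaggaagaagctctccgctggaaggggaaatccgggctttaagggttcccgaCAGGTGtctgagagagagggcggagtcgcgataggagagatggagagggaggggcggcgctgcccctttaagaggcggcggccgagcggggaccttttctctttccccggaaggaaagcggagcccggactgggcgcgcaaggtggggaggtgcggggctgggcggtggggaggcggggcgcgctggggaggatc

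*Itga7* (ENSMUSG00000025348, chr10:128933818-128958282, plus strand), alpha7 of skeletal and cardiac muscle, was at 111, 88 and 75 normalised counts in the GS samples, 114, 121 and 153 in the DM samples and 88, 32 and 60 in the NO samples. All NO samples lay below all DM samples, and NO overlapped with GS. NO against DM gave -1.20 (SE 0.33, adjusted p = 0.0348). The call was lost without NO replicate 2 (-0.81), NO replicate 3, GS replicate 2 or any of the DM replicates, with adjusted p-values of 0.0563 to 0.0993. *Mettl7b*, on the opposite strand, overlaps an exon of *Itga7*.

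Of the partners of these subunits, *Itgb4* rose in NO and *Itgb1* did not pass the test. *Itgb1* (ENSMUSG00000025809, chr8:128685654-128733200, plus strand) encodes beta1, shared by most integrins. It was at 3310, 3282 and 4168 normalised counts in the GS samples, 4572, 3839 and 3033 in the DM samples and 3510, 3031 and 2774 in the NO samples, and the media overlapped. Its fold changes were 0.08 (SE 0.17, adjusted p = 0.854), -0.21 (SE 0.17, adjusted p = 0.427) and -0.28 (SE 0.17, adjusted p = 0.286) for DM against GS, NO against GS and NO against DM. *Itgb4* (ENSMUSG00000020758, chr11:115974709-116008412, plus strand) encodes beta4, which pairs with alpha6 alone and anchors epithelial cells to laminin-332 in hemidesmosomes. Its level was 413, 379 and 349 normalised counts in the GS samples, 405, 427 and 501 in the DM samples and 742, 2448 and 1189 in the NO samples. The NO samples lay above all others, between 742 and 2448, while GS and DM overlapped. In NO the log2 fold change was 1.77 (SE 0.32, adjusted p = 0.00376) against GS and 1.54 (SE 0.32, adjusted p = 0.012) against DM, and without NO replicate 2 the values were 1.31 and 1.08, both called. The antisense gene B230344G16Rik overlaps an exon of *Itgb4*.

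In the make-up of the beta subunit transcripts, *Itgb4* took a larger share in NO. Per kilobase, *Itgb1* made up 66% ± 5.92 of the summed beta subunit level over the GS samples, 63.5% ± 5.36 over the DM samples and 50% ± 9.72 over the NO samples (SD, n = 3). *Itgb4* took 4.1% ± 0.507, 4.41% ± 1.04 and 12.9% ± 5.83. In NO replicates 1, 2 and 3 the share of *Itgb4* was 7.36%, 19% and 12.4%, each above the highest of the 6 other samples at 5.57%. The share of *Itga6* among the alpha subunits was 39.1% ± 1.89, 34.2% ± 3.35 and 38.7% ± 0.236.

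**Figure D3:**
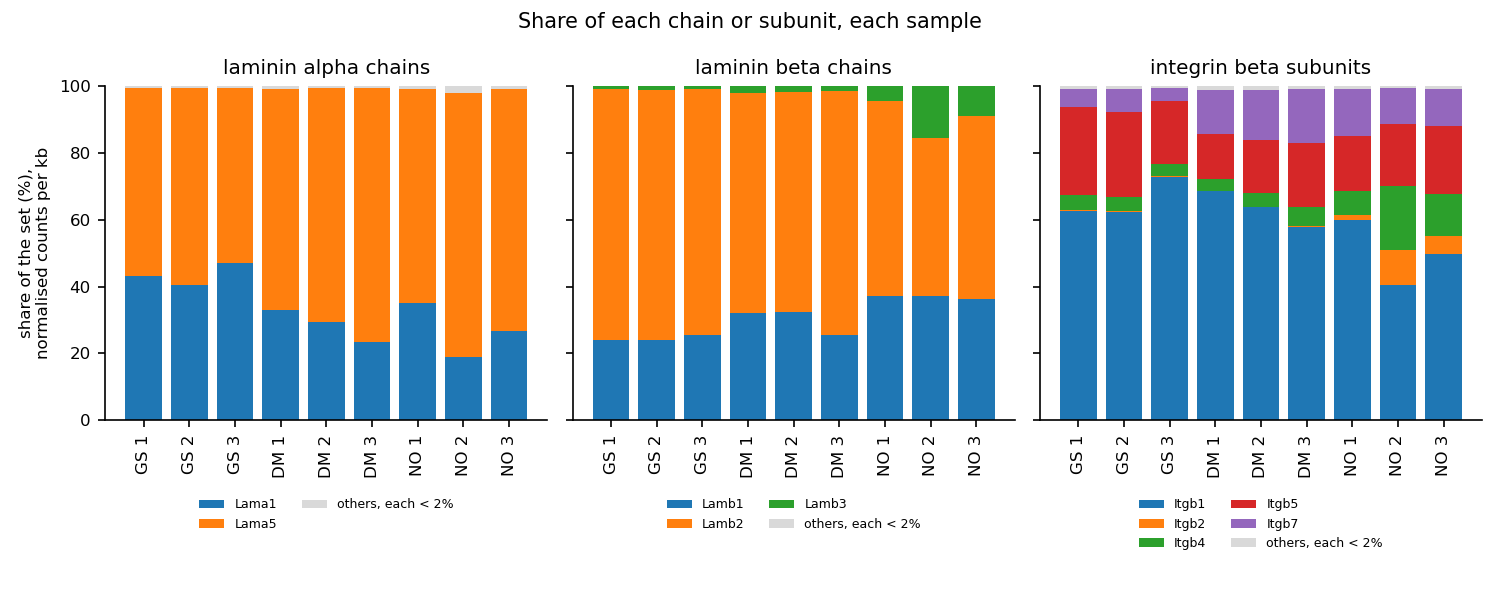
Share of each chain or subunit in the summed level per kilobase of its class, in each of the 9 samples, as stacked bars on an axis from 0 to 100%. *Lama5* takes a larger part of the alpha chains outside GS, and *Itgb4* and *Itgb2* widen in the NO bars of the beta subunits, most in NO replicate 2.

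Integrins that bind the RGD motif of fibronectin and vitronectin did not move together. *Itga8* (ENSMUSG00000026768, chr2:12106632-12301922, minus strand) encodes alpha8, a receptor for nephronectin in the kidney and mesenchyme. It was at 23, 34 and 34 normalised counts in the GS samples, 39, 34 and 34 in the DM samples and 121, 769 and 281 in the NO samples. The NO samples lay from 121 to 769, above all others, and GS and DM overlapped. In NO the log2 fold change was 3.27 (SE 0.51, adjusted p = 0.00161) against GS and 3.03 (SE 0.51, adjusted p = 0.00494) against DM, and these were 2.59 and 2.34 without NO replicate 2 and 3.92 and 3.67 without NO replicate 1. An exon of E030013I19Rik on the opposite strand overlaps *Itga8*. *Itga2b* (ENSMUSG00000034664, chr11:102453297-102470122, minus strand), alphaIIb of platelets and early blood progenitors, was at 58, 38 and 22 normalised counts in the GS samples, 44, 71 and 64 in the DM samples and 130, 716 and 234 in the NO samples. The NO samples again lay above all others. The values were 2.90 (SE 0.53, adjusted p = 0.00368) against GS and 2.24 (SE 0.53, adjusted p = 0.0199) against DM, or 2.22 and 1.56 without NO replicate 2. Against DM the call was lost without DM replicate 1 (adjusted p = 0.0698).

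*Itga5* (ENSMUSG00000000555, chr15:103344286-103366763, minus strand), alpha5 of the main fibronectin receptor, was at 885, 877 and 861 normalised counts in the GS samples, 1448, 1546 and 1706 in the DM samples and 1256, 763 and 1114 in the NO samples. The DM samples lay above all others, and NO overlapped with GS. DM against GS gave 0.84 (SE 0.17, adjusted p = 0.0141) and NO against DM -0.61 (SE 0.17, adjusted p = 0.0379), both past the adjusted p and under 2-fold, so that *Itga5* was not called. *Itgav*, alphaV, ranged from 997 to 2368 normalised counts, and its difference of NO from DM was 0.61 (SE 0.20, adjusted p = 0.0621). Its partners were not called either. *Itgb5* ranged from 785 to 1221 and *Itgb3* from 53 to 107. *Itgb6*, of epithelia, was at 6 or less in all samples, and *Itgb8* was at 0 in GS and DM and at 0, 1 and 1 in NO.

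Collagen-binding alpha subunits were low in every medium, at most 26.2 ± 17.4 normalised counts per kilobase for *Itga10* in NO. *Itga10* (ENSMUSG00000090210, chr3:96645584-96664519, plus strand), alpha10 of cartilage, was at 35, 40 and 22 normalised counts in the GS samples, 39, 48 and 70 in the DM samples and 83, 240 and 85 in the NO samples. The NO samples lay above all others. NO against GS gave 1.89 (SE 0.42, adjusted p = 0.00919), and NO against DM 1.22 (SE 0.42, adjusted p = 0.0717), which was not called except without NO replicate 1 (adjusted p = 0.0329). Gm42957 overlaps an exon of *Itga10* on the same strand. *Itga2* (ENSMUSG00000015533, chr13:114833081-114932100, minus strand), alpha2 of platelets and epithelia, was at 1, 1 and 0 normalised counts in the GS samples, 3, 0 and 1 in the DM samples and 3, 37 and 8 in the NO samples. Only NO replicates 2 and 3 exceeded 3 normalised counts. NO against GS gave a fitted 2.81 (SE 0.87, adjusted p = 0.0415), which was 3.32 at a pseudocount of 0.5 and 1.53 at a pseudocount of 5, where the call was lost. It was also lost with the replicate block (adjusted p = 0.0574), without GS replicate 1, 2 or 3 and without NO replicate 3 (adjusted p-values of 0.0797 to 0.13), and without NO replicate 2 the mean of the gene was too low for a test. Without NO replicate 1 it was 3.54. *Itga1* ranged from 8 to 68 and *Itga11* from 3 to 35, with no call.

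*Itga9* was the only gene called in all 3 comparisons, and its order from low to high was GS, NO, DM. It encodes alpha9 (ENSMUSG00000039115, chr9:118606690-118901003, plus strand), which pairs with beta1 and binds tenascin-C, osteopontin and the fibronectin segment EIIIA. It was at 156, 172 and 128 normalised counts in the GS samples, 707, 622 and 746 in the DM samples and 400, 207 and 353 in the NO samples. The 3 media did not overlap. DM against GS gave 2.19 (SE 0.23, adjusted p = 0.000299), NO against GS 1.03 (SE 0.23, adjusted p = 0.0107) and NO against DM -1.16 (SE 0.23, adjusted p = 0.0102). DM against GS was called under all alternatives run. NO against GS was called at 1.31 without NO replicate 2, and lost its call without GS replicate 3 (0.91), NO replicate 1 (0.84) or NO replicate 3 (0.93). NO against DM was -0.87 without NO replicate 2, under 2-fold. The RefSeq window of *Itga9* (GRCm38.p6, chr9:118711442-118711691, plus strand, 5′ to 3′) lies before an inner start, 105002 bases downstream of the first GENCODE start of the gene, and which start was used in these cells was not tested. It is shown because its 250 bases hold 2 Zeb1 E-boxes as CAGGTG, 87 and 55 bases before the start, and the hypoxia response element ACGTG 248 bases before it, all in capitals.
Itga9: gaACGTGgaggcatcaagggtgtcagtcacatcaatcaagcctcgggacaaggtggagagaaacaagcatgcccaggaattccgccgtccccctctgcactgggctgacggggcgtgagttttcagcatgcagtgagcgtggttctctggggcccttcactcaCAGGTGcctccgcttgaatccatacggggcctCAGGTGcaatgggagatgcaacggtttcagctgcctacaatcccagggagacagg

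*Itga4* (ENSMUSG00000027009, chr2:79255426-79333123, plus strand), alpha4, the closest relative of alpha9 and a receptor for VCAM-1 and fibronectin on blood cells, was at 2, 7 and 4 normalised counts in the GS samples, 9, 7 and 4 in the DM samples and 10, 72 and 18 in the NO samples. NO against GS gave 2.33 (SE 0.68, adjusted p = 0.0323). The call was lost without NO replicate 2 (1.55, adjusted p = 0.117), NO replicate 3, GS replicate 1 or GS replicate 3, with the lowest adjusted p of these at 0.0617, and the value was 2.92 without NO replicate 1. *Cerkl*, on the opposite strand, overlaps an exon of *Itga4*. The F test over the 3 media did not pass for *Itga4* (adjusted p = 0.0545), *Itga2* (0.0582) or *Itga7* (0.0525), each of which was called in 1 comparison.

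**Figure D4:**
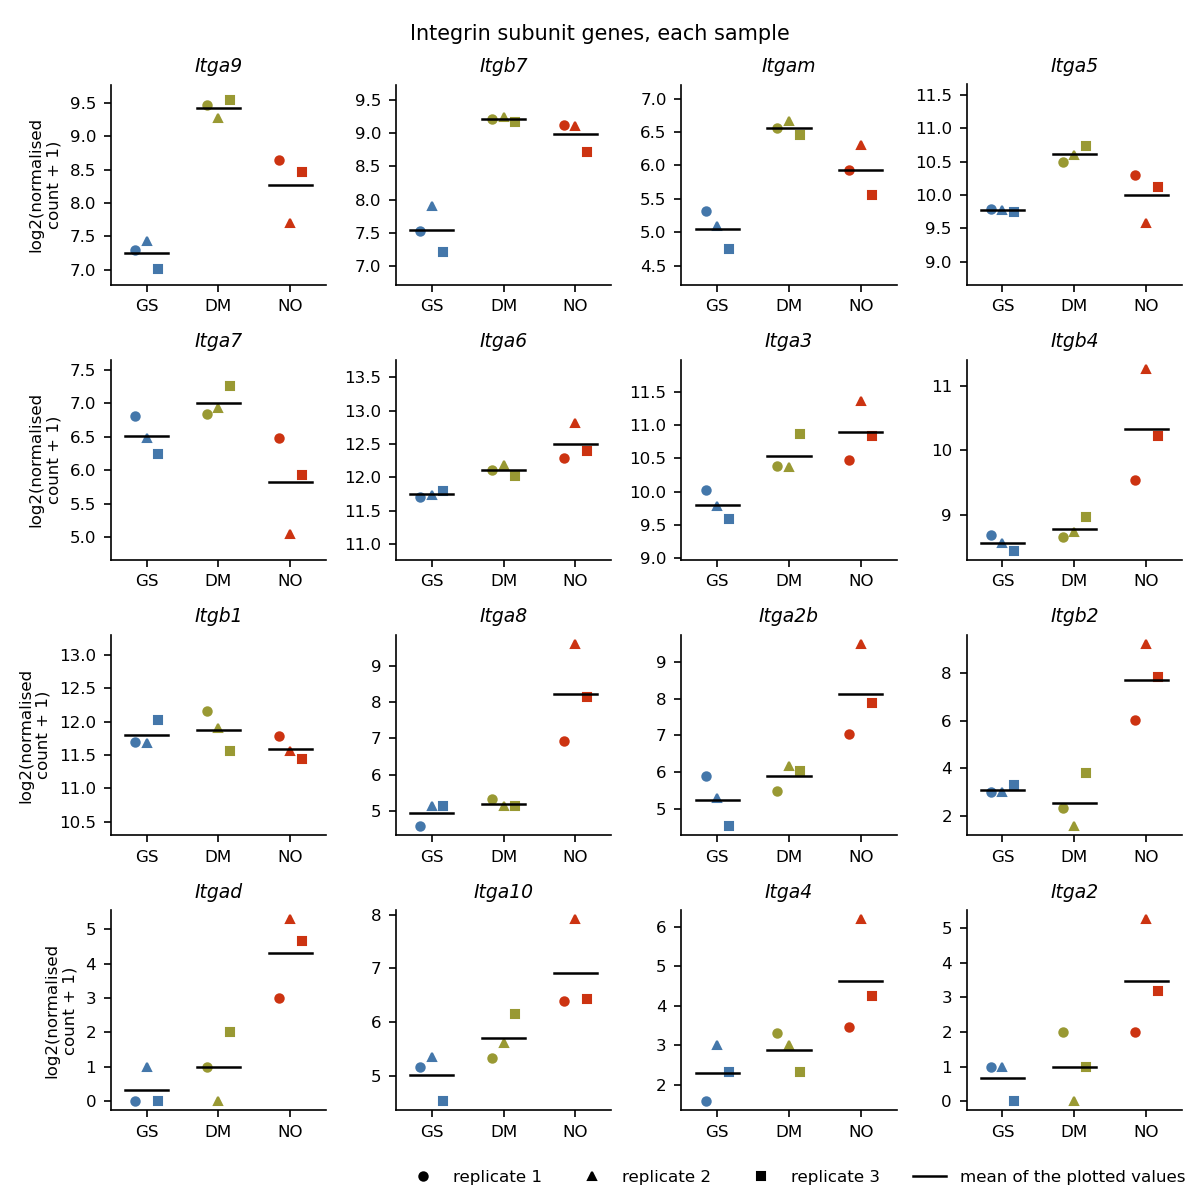
Levels of 16 integrin genes in each of the 9 samples as log2(normalised count + 1), with an axis of its own for each gene, points for samples and lines for the mean of each medium. *Itga9* and *Itgb7* rise from GS to DM, the NO points of *Itgb2* (64 to 593 normalised counts) lie above all others (2 to 13), and the points of *Itgb1* overlap between the media.

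The integrins known from leukocytes split by medium. *Itgb7* and *Itgam* rose on leaving the ground state, and *Itgb2* and *Itgad* rose in NO. *Itgb7* (ENSMUSG00000001281, chr15:102215995-102231944, minus strand), beta7 of gut-homing lymphocytes, was at 184, 239 and 148 normalised counts in the GS samples, 593, 601 and 574 in the DM samples and 557, 549 and 420 in the NO samples. All 6 samples outside GS lay between 420 and 601, above the highest GS value of 239. DM against GS gave 1.65 (SE 0.19, adjusted p = 0.000442), NO against GS 1.43 (SE 0.19, adjusted p = 0.000944) and NO against DM -0.22 (SE 0.19, adjusted p = 0.457). *Itgam* (ENSMUSG00000030786, chr7:128062640-128118491, plus strand), alphaM of macrophages, was at 39, 33 and 26 normalised counts in the GS samples, 93, 101 and 87 in the DM samples and 60, 78 and 46 in the NO samples. The 3 media did not overlap, with NO between GS and DM. DM against GS gave 1.51 (SE 0.27, adjusted p = 0.00582) and was called without each library in turn, while NO against GS, 0.87 (SE 0.27, adjusted p = 0.0402), was under 2-fold and reached 1.06 without NO replicate 3. Gm49368 overlaps an exon of *Itgam* on the same strand.

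*Itgb2* (ENSMUSG00000000290, chr10:77530252-77565708, plus strand), beta2, the shared beta subunit of the leukocyte integrins, was at 7, 7 and 9 normalised counts in the GS samples, 4, 2 and 13 in the DM samples and 64, 593 and 229 in the NO samples. The lowest NO sample was at 64 and the highest of the others at 13. The log2 fold change of NO against GS was 4.59 (SE 0.73, adjusted p = 0.00182) and NO against DM 5.12 (SE 0.73, adjusted p = 0.00286). The former was 3.83 without NO replicate 2 and 5.42 without NO replicate 1, and the latter 4.36, 5.96 and, without DM replicate 3, 5.74. All were called. Its share of the summed beta subunit level per kilobase was 0.189% ± 0.0188 over the GS samples, 0.152% ± 0.157 over the DM samples and 5.84% ± 4.57 over the NO samples. In NO replicates 1, 2 and 3 the share was 1.46%, 10.6% and 5.49%, with a mean of 3.47% without NO replicate 2.

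*Itgad* (ENSMUSG00000070369, chr7:128154376-128223816, plus strand), alphaD, was at 0, 1 and 0 normalised counts in the GS samples, 1, 0 and 3 in the DM samples and 7, 38 and 24 in the NO samples. The fitted values were 3.98 (SE 0.76, adjusted p = 0.00475) against GS and 3.31 (SE 0.76, adjusted p = 0.0178) against DM. With pseudocounts of 0.5 and 5 they were 4.73 and 2.21 against GS, and 3.80 and 1.99 against DM. Against DM the call was lost without DM replicate 1, DM replicate 2 or NO replicate 3, with adjusted p-values of 0.053 to 0.0668, and without NO replicate 2 the mean was too low for a test. Without NO replicate 1 the values were 4.63 and 3.96. Exons of *Cox6a2*, 4931431B13Rik and Gm39091 on the opposite strand and of Gm17831 on the same strand overlap *Itgad*. *Itgax*, alphaX of dendritic cells, was at 0 in all GS and DM samples and at 2, 19 and 5 in NO. The other alpha subunits of leukocytes were not called. *Itgal*, alphaL, which pairs with beta2, was at 367, 379 and 323 normalised counts in the GS samples, 520, 473 and 560 in the DM samples and 461, 190 and 398 in the NO samples, so that its lowest value was in the sample with the highest *Itgb2*. *Itgae*, the partner of beta7 in the gut, ranged from 103 to 212. *Itgb2l* did not exceed 1, and *Itgbl1*, the integrin beta-like gene, did not exceed 3 in any sample.

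Markers of blood cells moved in part with *Itgb2*. Their summed level ran from 1533 to 1925 normalised counts over the GS samples, from 1765 to 1831 over the DM samples and from 2886 to 3684 over the NO samples, and most of it was *Laptm5*. In NO, *Laptm5* gave 0.99 (SE 0.14, adjusted p = 0.00117) against GS and 0.95 (SE 0.14, adjusted p = 0.00322) against DM. Both were past the adjusted p and just under 2-fold, so *Laptm5* was not called. *Ptprc*, the pan-leukocyte gene CD45, did not exceed 2 in any sample. *Spi1*, a transcription factor of myeloid cells, was at 16, 19 and 16 in the GS samples, 6, 8 and 7 in the DM samples and 29, 65 and 41 in the NO samples. Of 6 blood markers tested, *Spi1* alone was called in NO (16.7%, beside 10.1% of all genes against GS and 6.78% against DM). It gave 1.28 (SE 0.37, adjusted p = 0.0317) against GS and 2.46 (SE 0.37, adjusted p = 0.00334) against DM. The value against GS was 0.98 without NO replicate 2 and not called, as was the case without NO replicate 3 or any GS replicate, and the value against DM was 2.16, which was called. *Runx1* was at 8, 40 and 20 in NO and from 8 to 14 in the other media, *Gata1* was at 81, 38 and 59 in NO and 79, 73 and 81 in DM, and *Pf4* did not exceed 5. The part of blood cells in the levels of these integrins was not tested.

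Spread among the NO samples was shared by the genes that rose. All 8 genes called higher in NO than in DM had the order NO replicate 2, NO replicate 3, NO replicate 1, from high to low. This order was held by 89.4% of the 1231 genes called higher in NO than in DM over the whole table, so it is not particular to laminins and integrins. The median over the 8 genes of the difference from the DM mean was 1.38, 4.22 and 2.86 on the log2 scale in NO replicates 1, 2 and 3. For the 24 genes not called in NO against DM it was 0.01, 0.57 and 0.27. Of all 34 tested genes, NO replicate 2 was the highest NO sample for 23 and the lowest for 8, among the latter *Itga5*, *Itga7*, *Itga9*, *Itgal* and *Lamc1*, and it also had the lowest summed level of pluripotency genes. The part of the make-up of that sample in these values was not tested.

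**Figure D5:**
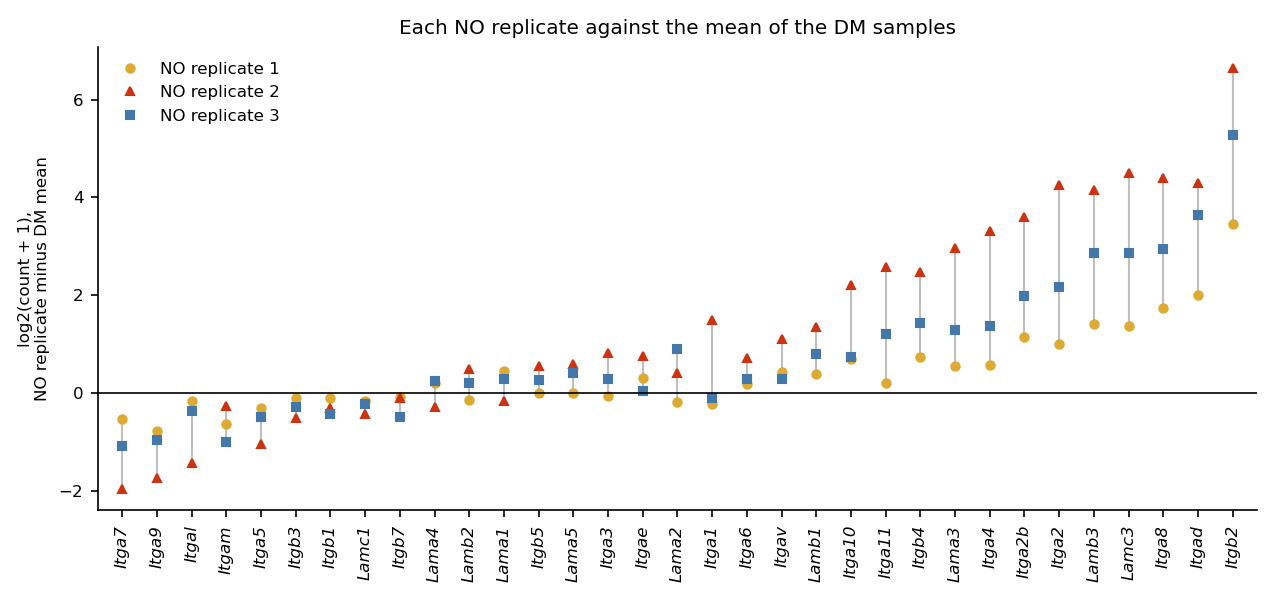
Difference of each NO sample from the DM mean, on the scale of log2(normalised count + 1), for 33 of the tested laminin and integrin genes. NO replicate 2 is the farthest from 0 for each of the 7 genes shown that were called higher in NO than in DM, with *Itgb2* farthest out.

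Promoters of the genes were searched for motifs of factors named in the study or in earlier results of these data. RefSeq windows (GRCm38.p6) from 250 bases before to 50 bases after a start were found for 25 of the 39 genes, as 28 windows. The Zeb1 E-box CACCTG, on either strand, was in 8 of the 28 windows (28.6%) and in 20.2% of all 32851 windows. It was found for *Itga3*, *Itga9* and *Lamb3* among the 11 called genes with a window, and for *Itga11*, *Itgb5*, *Itgb6*, *Itgb8* and *Lama5* among the 14 others. The windows of *Itga8*, *Itga2b*, *Itgb7* and *Lamb1* had no such letters. The AP-1 site TGANTCA was in 3 windows (10.7%, against 7.81%) and ACGTG, on either strand, in 1 (3.57%, against 19.6%). In the sequences printed above the motifs do not overlap each other. A match describes letters only.

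The other genes of the adhesion pathway, from 6 lists of known partners, were for the most part not called. Of 75 tested genes, 6 were called between DM and GS (5 up, 1 down in DM), 27 between NO and GS (26 up, 1 down in NO) and 17 between NO and DM (16 up, 1 down in NO). In DM against GS, 6.67% were higher and 1.33% lower, beside 2.94% and 1.27% of all genes tested. The share lower in NO was 1.33% in each comparison, beside 1.64% of all genes against GS and 1.77% against DM. Those higher in NO made up 34.7% against GS and 21.3% against DM, beside 10.1% and 6.78% of all genes tested. Without NO replicate 2 they were 15 (20%, against 6.57% of all genes) and 10 (13.3%, against 3.4%). Among 13 partners of the basement membrane, the collagen IV chains *Col4a1* and *Col4a2* rose outside GS. *Col4a5*, another such chain, gave 0.37 (SE 0.51, adjusted p = 0.749) for DM against GS, which was not called. *Col4a1* was at 313, 381 and 291 normalised counts in the GS samples, 1245, 1382 and 1026 in the DM samples and 1114, 3112 and 1624 in the NO samples, with 1.89 (SE 0.30, adjusted p = 0.00279) for DM against GS and 2.44 (SE 0.30, adjusted p = 0.000646) for NO against GS. Its partner *Col4a2* was at 165, 135 and 131 normalised counts in the GS samples, 412, 389 and 358 in the DM samples and 443, 1443 and 732 in the NO samples and was called in the same comparisons, with 1.43 (SE 0.33, adjusted p = 0.0224) and 2.43 (SE 0.33, adjusted p = 0.000944). Without any 1 GS or DM replicate the call of *Col4a2* in DM against GS was lost (adjusted p = 0.0509 to 0.0994), while that of NO against GS was kept. *Ntn4*, a netrin that binds laminin gamma chains, was at 4, 3 and 5 normalised counts in the GS samples, 2, 4 and 7 in the DM samples and 12, 92 and 30 in the NO samples, with 2.76 (SE 0.67, adjusted p = 0.0143) for NO against GS. This was 3.44 without NO replicate 1, and the call was lost without NO replicate 2 (2.03) or GS replicate 2 (2.61).

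Of 11 ligands of integrins other than laminin, 5 were higher in NO than in GS (45.5%, against 10.1% of all genes) and 5 higher than in DM (45.5%, against 6.78%). These were 3 and 4 without NO replicate 2. *Npnt*, nephronectin, the main ligand of the alpha8 integrin, was at 60, 57 and 78 normalised counts in the GS samples, 114, 102 and 100 in the DM samples and 369, 1656 and 582 in the NO samples. It rose in NO by 3.44 (SE 0.42, adjusted p = 0.000646) against GS and 2.74 (SE 0.42, adjusted p = 0.0034) against DM, or by 2.83 and 2.13 without NO replicate 2, both called. *Thbs1*, thrombospondin-1, was at 29, 59 and 42 normalised counts in the GS samples, 75, 81 and 97 in the DM samples and 125, 975 and 336 in the NO samples, and *Cyr61*, a matricellular ligand of alphaV, at 203, 259 and 143 normalised counts in the GS samples, 123, 103 and 78 in the DM samples and 314, 1937 and 456 in the NO samples. Both were called in NO, with 2.03 (SE 0.56, adjusted p = 0.0345) and 2.70 (SE 0.52, adjusted p = 0.00891) against DM. Without NO replicate 2 *Cyr61* gave 1.91, which was called, and *Thbs1* 1.28, which was not (adjusted p = 0.0784). Without NO replicate 1 *Thbs1* gave 2.76, and its call was also lost without NO replicate 3, GS replicate 3 or any DM replicate. Among 7 matrix receptors other than integrins, 4 were higher in NO than in GS (57.1%, against 10.1% of all genes), and 1 without NO replicate 2. *Cd44*, best known as a receptor for hyaluronan, fell in DM and was at 54, 31 and 49 normalised counts in the GS samples, 14, 11 and 9 in the DM samples and 65, 280 and 88 in the NO samples, with -1.87 (SE 0.48, adjusted p = 0.0377) for DM against GS and 3.28 (SE 0.48, adjusted p = 0.00288) for NO against DM. The latter was 2.66 without NO replicate 2, and the former lost its call without NO replicate 3 or any GS or DM replicate (adjusted p = 0.0542 to 0.143). *Sdc4*, syndecan-4, was at 5279, 4886 and 3886 normalised counts in the GS samples, 5790, 5452 and 7533 in the DM samples and 8741, 17943 and 13346 in the NO samples, and *Sgce*, an epsilon-sarcoglycan, at 149, 124 and 120 normalised counts in the GS samples, 158, 159 and 149 in the DM samples and 237, 477 and 262 in the NO samples. Against GS they gave 1.46 (SE 0.24, adjusted p = 0.00209) and 1.24 (SE 0.25, adjusted p = 0.00563) in NO. Without NO replicate 2 *Sdc4* gave 1.22, which was called, and *Sgce* 0.93, under 2-fold.

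Inside the cell, 5 of 23 genes of focal adhesions and integrin activation were higher in NO than in GS (21.7%, against 10.1% of all genes) and 3 were higher than in DM (13%, against 6.78%). These were 4 and 3 without NO replicate 2. The kindlins bind the tails of beta subunits. *Fermt1*, the kindlin of epithelia, was at 7, 6 and 5 normalised counts in the GS samples, 9, 4 and 5 in the DM samples and 50, 390 and 118 in the NO samples, and *Fermt3*, the kindlin of blood cells, at 84, 59 and 82 normalised counts in the GS samples, 87, 86 and 133 in the DM samples and 261, 843 and 398 in the NO samples. Against DM they rose in NO by 4.32 (SE 0.62, adjusted p = 0.00286) and 2.14 (SE 0.37, adjusted p = 0.00535). *Fermt1* gave 3.54 without NO replicate 2 and 5.01 without NO replicate 1, both called. *Parva*, an actin-binding partner of the kinase Ilk, was at 24, 14 and 22 normalised counts in the GS samples, 11, 13 and 17 in the DM samples and 36, 123 and 58 in the NO samples, with 2.16 (SE 0.44, adjusted p = 0.0103) in the same comparison. Of 9 partners in hemidesmosomes and tetraspanin webs, *Plec*, the plectin that links beta4 to keratin filaments, was at 4111, 4118 and 3261 normalised counts in the GS samples, 4880, 5668 and 5189 in the DM samples and 5134, 18896 and 8351 in the NO samples, and *Dst*, its relative dystonin, at 17617, 18316 and 17251 normalised counts in the GS samples, 12633, 15998 and 11035 in the DM samples and 18656, 40862 and 25219 in the NO samples. *Plec* was called in NO against GS, 1.29 (SE 0.35, adjusted p = 0.0237), and *Dst* in NO against DM, 1.04 (SE 0.25, adjusted p = 0.0202). Omission of NO replicate 2 gave 0.78 and 0.73, under 2-fold. The call of *Plec* was also lost without NO replicate 3 or any GS replicate, and that of *Dst* without NO replicate 3, DM replicate 1 or DM replicate 3. *Cd82*, a tetraspanin, was at 16, 8 and 9 normalised counts in the GS samples, 15, 15 and 10 in the DM samples and 25, 33 and 33 in the NO samples and called in NO against GS, 1.43 (SE 0.38, adjusted p = 0.0215). That call was lost without NO replicate 2 (1.37), NO replicate 3, GS replicate 2 or GS replicate 3.

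Of 12 proteases and inhibitors of matrix turnover, 6 were higher in NO than in GS (50%, against 10.1% of all genes), and 4 without NO replicate 2. *Plat*, tissue plasminogen activator, was at 19, 20 and 30 normalised counts in the GS samples, 9, 24 and 26 in the DM samples and 45, 612 and 115 in the NO samples, with 2.97 (SE 0.75, adjusted p = 0.024) in NO against DM. Its NO samples ranged from 45 to 612, and the value was 1.95 without NO replicate 2 (adjusted p = 0.0415) and 3.82 without NO replicate 1. The call was lost without NO replicate 3, DM replicate 1 or DM replicate 2. *Bmp1*, a protease that cleaves procollagens, was at 50, 56 and 42 normalised counts in the GS samples, 63, 65 and 69 in the DM samples and 160, 553 and 256 in the NO samples, with 2.09 (SE 0.36, adjusted p = 0.00581). *Timp3*, an inhibitor of metalloproteases held in the matrix, rose in both media without inhibitors and was at 15, 14 and 17 normalised counts in the GS samples, 98, 77 and 104 in the DM samples and 73, 169 and 89 in the NO samples. It gave 2.52 (SE 0.32, adjusted p = 0.000745) for DM against GS and 2.68 (SE 0.32, adjusted p = 0.000609) for NO against GS.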

How the data were processed

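Total RNA of mESC in GS, DM and NO medium was sequenced with 3 replicates per medium, and the medium and replicate number of each sample came from the labels. After ribosomal depletion and Ion Torrent Proton sequencing, the authors aligned reads to GRCm38 with STAR 2.4.0a after FastQC 0.11.2 and counted reads over exons with featureCounts 1.4.5-p1, per the labels and the submitters' processing notes. Each deposited value is a score, a gene count that the authors divided by a DESeq2 size factor and rounded to a whole number. They are called normalised counts here, and no count model was fitted to them. Use of the strand in counting is not given in the sources used here, so genes whose exons overlap another gene are uncertain. Beside those named above, these include *Itga1*, *Itgav* and *Lama2*, which were not called. A column of sums was not used, and 0 columns of samples were left out.

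Genes with a mean above 5 were tested on the scale of log2(value + 1) with limma 3.58.1 in R 4.3.3, all 9 samples in 1 fit, medium as the only term, a mean-variance trend and two-sided tests. The 3 media share 1 estimate of the spread of each gene, so a wide spread in NO also widens the SE of DM against GS. P-values were adjusted by Benjamini-Hochberg over 18156 genes. A gene was called at an adjusted p under 0.05 and a log2 fold change of at least 1, the thresholds of the study. The procedure was tested on data simulated with the same dispersion for all genes and media. A wider spread in NO, as seen for the genes that rose, was not simulated. Depth was estimated from the gaps between low values, which rounding of divided counts leaves, and it sets the precision of genes with few reads, while the 3 replicates set that of the others.

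The laminin and integrin genes, the lists of partner genes and markers, and the tests were chosen with earlier results of these data known. All genes that the rule on names gives are in the counts, and the values of 1 of them are not reported here. The others called in at least 1 comparison have the value in every sample, and at most 3 called genes with the largest change are named from each partner list. Coordinates, exon lengths and overlaps came from GENCODE M21, which may differ from the release the authors used. Promoter windows came from the RefSeq table of GRCm38.p6.

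Replicate numbers 1 to 3 recur in each medium. The deviations of same-numbered samples from their group means correlated at 0.16, 0.17 and 0.30 between NO and DM. The main tests did not pair these samples, and the replicate block was run only as an alternative. Between DM and GS the correlations lay from -0.23 to 0.02, and between NO and GS from -0.11 to 0.05. The alternatives were fits of the 6 samples compared, a replicate block, other minimum means, fold changes and pseudocounts, moderation without a trend, precision weights (vooma), equal totals, quantile normalisation, and omission of each replicate.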

Additional observations from a re-analysis of the deposited data

How the results depend on the processing

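Of 29 calls of single laminin and integrin genes, 18 passed under every alternative that could be run at the 2-fold threshold. Of the others, 11 were lost under at least 1 of these alternatives, and 0 calls changed direction. A higher minimum fold change is not part of this tally. With a minimum log2 fold change of 2, the calls fell from 4 to 1 in DM against GS, from 15 to 8 in NO against GS and from 10 to 6 in NO against DM, and those of the other adhesion pathway genes from 50 to 25. Without each replicate in turn, they were 4 throughout in DM against GS, 9 to 16 in NO against GS, 6 to 15 in NO against DM, 15 to 22 for the F test (17 with all samples) and 34 to 61 for the other pathway genes. The lowest values came without NO replicate 2, in NO against DM also without DM replicate 1, and for the F test without GS replicate 3. Without NO replicate 2, *Itga2* and *Itgad* fell under the minimum mean. All other settings stayed within 1.5 times of these counts.

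With the replicate number as a block, 4, 14 and 11 genes were called. *Itga2* was lost in NO against GS (adjusted p = 0.0574) and *Lama3* was gained in NO against DM (adjusted p = 0.0472), and the block changed no other call. Equal totals moved the median of all genes in NO against GS from -0.016 to 0.092. Quantile normalisation lost the calls of *Itga2* (1.97), *Itga4* (1.83), *Itga9* (0.81) and *Lama1* (-0.92) in NO against GS. Without a trend, *Itga2b* (adjusted p = 0.0567), *Itga7* (0.0673) and *Lamc3* (0.0538) were lost in NO against DM. In NO against GS, *Itga2* (0.0526) and *Itga4* (0.0519) were lost there. Fits of only the 6 samples compared lost *Itga2* and *Itga4* against GS, and *Itga7* and *Lamc3* against DM. Precision weights lost *Itga2* and *Itga4* against GS and *Lamc3* against DM. With no minimum mean, *Itga4* was lost against GS and *Itga7* against DM.

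Log2 fold changes of 14 uncalled comparisons changed sign. With equal totals, *Lamc1* in DM against GS was 0.022, and *Lama5* and *Lamb2* in NO against GS were 0.10 and 0.091. With quantile normalisation these were 0.078, 0.23 and 0.072, and in NO against GS *Lama4* was -0.18, *Lama2* -0.18, *Itgb3* -0.33 and *Itga11* -0.39, with *Lama4* at -0.28 in NO against DM. Without 1 replicate, values in DM against GS ranged from -0.048 to 0.039 for *Lamc1*, -0.15 to 0.10 for *Itgae*, -0.17 to 0.83 for *Itga2*, -0.50 to 0.079 for *Lama2* and -0.063 to 0.23 for *Itgb1*. In NO against GS they ranged from -0.13 to 0.16 for *Lama5*, -0.54 to 0.64 for *Itga11*, -0.17 to 0.14 for *Lamb2*, -0.13 to 0.48 for *Lama2*, -0.020 to 0.24 for *Itgb3* and -0.37 to 0.27 for *Itgal*, and in NO against DM from -0.076 to 0.22 for *Lama4* and -0.17 to 0.69 for *Itga1*. The causes were not tested. Genes under about 10 normalised counts are limited by depth.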
